A study of Mus musculus with 9 samples.

Results

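Messenger RNA of 35 genes of the cell cycle and of DNA replication was followed in the omenta of tumour-bearing mice. They were taken by symbol from the 55359 genes of the count table, each symbol matched 1 gene, and all 35 had enough counts to be tested among 17123 genes. In 20 of them the protein acts in mitosis, the step in which copied chromosomes are pulled apart, and in 15 it acts in the copying of DNA or in the passage from G1 into S phase that precedes it. The mice were C57BL/6, 7 to 10 weeks old, and all had received 500000 B16-OVA cells, a melanoma line that makes ovalbumin, into the peritoneal cavity. On day 6 they were given OT-I T cells, which recognise an ovalbumin peptide, carrying electroporated mRNA for the cytokine IL-12, into the peritoneal cavity (IP, 3 mice) or into a vein (IV, 3 mice), or saline (PBS, 3 mice, with no route in the titles). The omentum, a fatty apron of the peritoneum, was collected 18 h later. No group had T cells without the mRNA, so the effects of the cells and of IL-12 cannot be told apart, and each library carries the number of 1 mouse.

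Cell cycle genes are switched on in waves. Genes of replication are driven in late G1 and S phase by E2F factors, whereas genes of mitosis peak in G2 and mitosis, when complexes of B-Myb, MuvB and FoxM1 act at a promoter element named CHR, often beside CCAAT boxes bound by NF-Y. In resting cells the DREAM complex and Rb proteins hold both sets down, and p53, through its target p21, is a well-known way to that state. In tissue such as a tumour nodule, the sum of these transcripts depends on how many cells cycle and on which phase they are in.

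Library totals ran from 7379798 counts in IV 2 to 44626843 in PBS 3. IV 4 stood apart from its group, since across genes its log2 CPM correlated at r = 0.9815 with PBS 3 and at 0.9484 and 0.9531 with IV 1 and IV 2. Transcripts of digestive enzymes, the pancreatic acinar list, summed to 16090, 20720 and 3475 CPM (counts over the TMM-scaled library size, on the usual CPM scale) in IP 4, IV 1 and IV 2 and to at most 173.2 CPM in each other library. Counts of calls are given below also without IV 4, and without IP 4 and IV 1 together; IV 2 was left out on its own, and no fit left out all 3 acinar-rich libraries. With library totals in place of TMM the median log2 fold change of all genes was -0.15 for IP against PBS and -0.12 for IP against IV, beside 0.02 and -0.02 with TMM, and the share of calls that were higher was 40.9%, 54.6% and 41.0% for IP against PBS, IV against PBS and IP against IV, beside 56.8%, 64.8% and 57.0%.

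The promoters of the 2 classes differ in the letters they hold, and whether this bears on the levels of the members was not tested. Windows from 250 bases before to 50 bases after an annotated start came from RefSeq on GRCm38.p6, and 28 of the 35 members had one, 16 mitotic and 12 of replication, with 2 windows for Mcm7. The window of Kif23, the gene of a motor protein of cytokinesis, lies at chr9:61946750-61947049 on the minus strand, and that of Cdc20, the activator of the ubiquitin ligase that ends metaphase, at chr4:118437294-118437593 on the minus strand. The window of Rrm2, a subunit of the enzyme that makes deoxyribonucleotides, lies at chr12:24708004-24708303 and that of Cdc6, which loads the replicative helicase, at chr11:98907901-98908200, both on the plus strand. All 4 are written 5′ to 3′ along the gene, and capitals mark the CHR match (TTTGAA) in Kif23 and Cdc20 and the E2F match in Rrm2 and Cdc6 (GCGGCAA and GCGGGAA, the opposite strands of TTGCCGC and TTCCCGC).
Kif23: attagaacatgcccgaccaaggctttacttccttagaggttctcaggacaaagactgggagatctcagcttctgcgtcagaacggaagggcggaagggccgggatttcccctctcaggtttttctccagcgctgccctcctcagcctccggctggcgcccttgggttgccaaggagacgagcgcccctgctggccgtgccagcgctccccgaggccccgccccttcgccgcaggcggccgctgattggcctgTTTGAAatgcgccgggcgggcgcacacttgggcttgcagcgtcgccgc
Cdc20: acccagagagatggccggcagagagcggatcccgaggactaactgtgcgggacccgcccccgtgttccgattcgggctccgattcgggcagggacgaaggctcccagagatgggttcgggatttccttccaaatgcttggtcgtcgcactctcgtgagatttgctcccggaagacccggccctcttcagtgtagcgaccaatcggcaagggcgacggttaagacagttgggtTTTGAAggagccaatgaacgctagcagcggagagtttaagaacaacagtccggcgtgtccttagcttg
Rrm2: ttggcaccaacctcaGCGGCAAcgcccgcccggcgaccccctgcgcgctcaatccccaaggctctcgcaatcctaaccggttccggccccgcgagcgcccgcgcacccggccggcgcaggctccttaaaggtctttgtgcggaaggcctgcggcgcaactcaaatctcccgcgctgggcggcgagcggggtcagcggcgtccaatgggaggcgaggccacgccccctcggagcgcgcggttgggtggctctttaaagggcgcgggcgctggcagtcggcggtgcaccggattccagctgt
Cdc6: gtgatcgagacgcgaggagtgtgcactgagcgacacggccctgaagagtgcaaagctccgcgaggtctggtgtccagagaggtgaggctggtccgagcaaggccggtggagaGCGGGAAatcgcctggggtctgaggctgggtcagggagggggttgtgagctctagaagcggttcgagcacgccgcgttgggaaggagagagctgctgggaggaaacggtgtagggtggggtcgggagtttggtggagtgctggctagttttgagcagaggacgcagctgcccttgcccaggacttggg

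Each of 3 motifs was searched on both strands. CHR, as TTTGAA or TTCGAA, was in the windows of 12 of 16 mitotic members (Bub1, Bub1b, Plk1, Mki67, Top2a, Ccnb2, Cdk1, Aurka, Kif11, Kif23, Cenpf and Cdc20) and of 2 of 12 replication members (Mcm2 and Mcm7), against 19.2% of all 32851 windows. E2F was searched as TTCCCGC and as TTGGCGC and also as TTCGCGC and as TTGCCGC. A match was in 3 of 16 mitotic windows (Mki67, Ccnb1 and Cdk1) and 7 of 12 replication windows (Mcm3, Mcm5, Mcm6, Mcm7, Rrm1, Rrm2 and Cdc6), against 9.57% of all. CCAAT was in 14 and 8 of them, against 37.4% of all, and its letters can overlap those of an E2F match (GCGCCAA followed by T). With the bases before the start alone, CHR was in 7 of 16 mitotic and 2 of 12 replication windows, against 17.1% of all. E2F was then in 3 of 16 mitotic and 6 of 12 replication windows, against 7.89% of all. These are matches of letters, and whether a factor binds there was not measured.

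**Figure D1:**
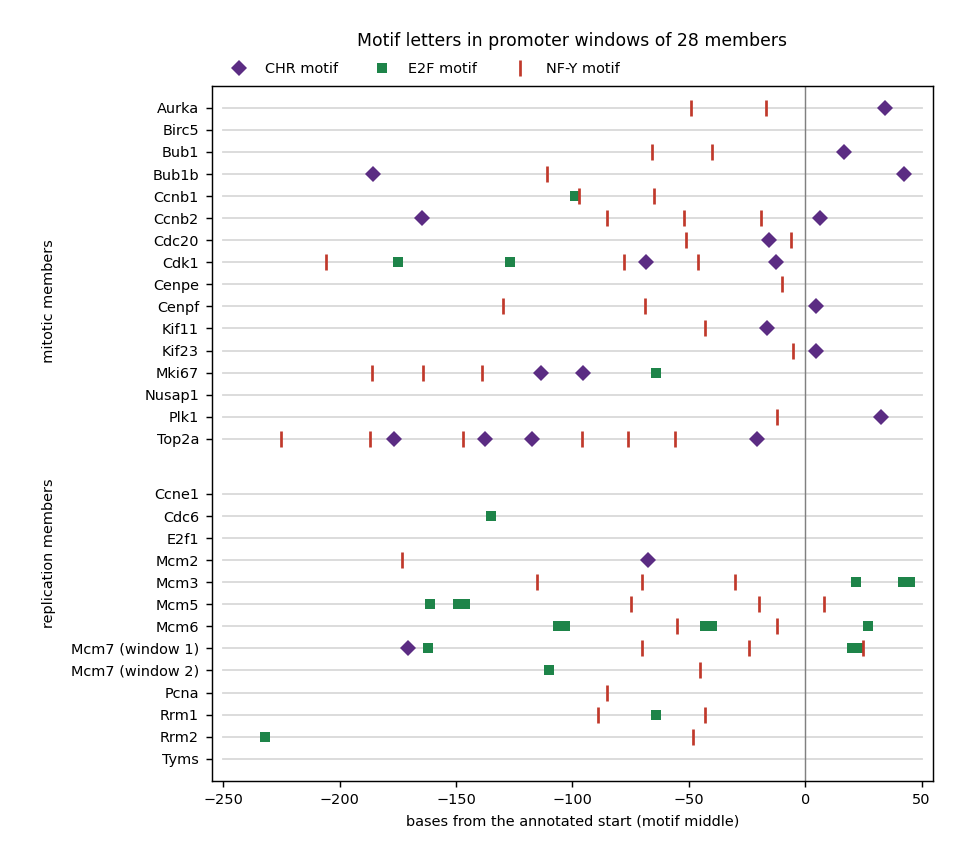
Positions of motif letters in the promoter windows of 28 members, as the distance of the motif's middle from the annotated start in bases; each grey line is 1 window, with purple diamonds for CHR, green squares for E2F and red bars for CCAAT (NF-Y motif). CHR matches sit in 12 of the 16 mitotic members and 2 of the 12 replication members, and E2F matches in 3 and 7 of them.

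After IP delivery every member was less abundant than after PBS. All 20 mitotic members fell, by a median of 1.27 on the log2 scale, which is 58.5% less transcript, and all 15 replication members fell, by a median of 0.83 or 43.7%. Over all 17123 genes 14.2% were called lower, 18.7% higher and 32.9% in either direction (edgeR, adjusted p under 0.05), and their median log2 fold change was 0.02. In each of the 35 members the 3 IP libraries lay below the 3 PBS libraries, though the share of all genes separated in this way was not counted. After IV delivery 14 of 20 mitotic and 9 of 15 replication members were lower than after PBS, with medians of -0.50 and -0.63, where 5.66% of all genes were called lower, 10.4% higher and 16.1% in either direction. None of the members was called higher in either comparison. Both comparisons share the PBS libraries. In bulk tissue, fewer cells of a type and less RNA per cell cannot be told apart.

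**Figure D2:**
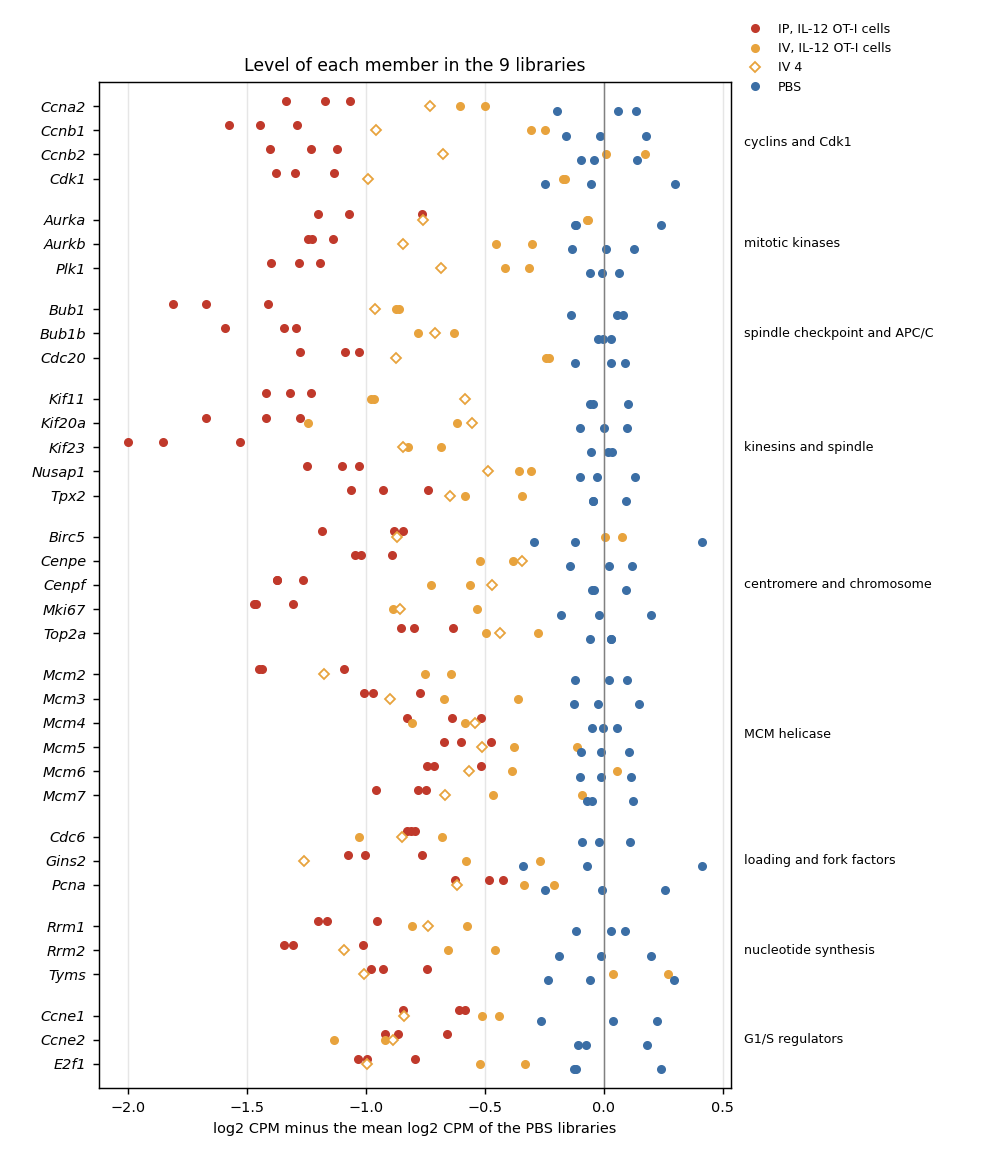
Level of each of the 35 members in each of the 9 libraries, as log2 CPM minus the mean log2 CPM of the PBS libraries, grouped by role; red, IP; orange, IV, with IV 4 as an open diamond; blue, PBS. The red points lie left of the blue ones in every member, and in Ccnb2, Cdk1, Aurka, Birc5 and Tyms IV 4 lies apart from the other IV libraries, on the side of IP.

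Among the cyclins and their kinase, Ccna2, the cyclin of S phase and G2, had 70.3, 75.5 and 62.6 CPM in IP 2, IP 3 and IP 4, 104, 112 and 95.4 CPM in IV 1, IV 2 and IV 4, and 165, 174 and 138 CPM in PBS 1, PBS 2 and PBS 3. The 3 groups did not overlap. Its log2 fold change was -1.19 ± 0.13 (SE) for IP against PBS (edgeR adjusted p = 8.78e-05) and -0.61 ± 0.13 for IV against PBS (edgeR adjusted p = 0.012). Ccnb1, a cyclin that takes cells into mitosis, had 28.1, 34.3 and 30.8 CPM in IP, 70.7, 67.9 and 43.2 CPM in IV and 83, 94.7 and 75.0 CPM in PBS. Ccnb2, the second such cyclin, had 43.6, 53 and 49.2 CPM in IP, 130, 116 and 72.3 CPM in IV and 112, 127 and 108 CPM in PBS. In both cyclins IV 1 and IV 2 were near the PBS libraries and IV 4 was lower. Ccnb1 fell by 1.44 ± 0.19 in IP against PBS (edgeR adjusted p = 0.00023) and was not called in IV against PBS (-0.48 ± 0.18, edgeR adjusted p = 0.104). Ccnb2 fell by 1.25 ± 0.20 in IP (edgeR adjusted p = 0.000715) and had -0.13 ± 0.19 in IV (edgeR adjusted p = 0.699). Cdk1, the kinase that these cyclins activate, had 73.3, 82.1 and 69.5 CPM in IP, 160, 161 and 90.7 CPM in IV and 174, 222 and 152 CPM in PBS. It followed the B cyclins, with -1.29 ± 0.22 in IP against PBS (edgeR adjusted p = 0.00128) and -0.42 ± 0.22 in IV against PBS (edgeR adjusted p = 0.225), where the groups overlapped. The IV call of Ccna2 was lost without PBS 1 (edgeR adjusted p = 0.0532).

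The 3 mitotic kinases fell after IP delivery. Plk1, which drives mitotic entry and spindle assembly, had 38.5, 44.4 and 41.7 CPM in IP, 76.1, 81.5 and 63.2 CPM in IV and 97.6, 101 and 106 CPM in PBS. Its levels formed 3 separate steps. The log2 fold change was -1.29 ± 0.12 for IP against PBS (edgeR adjusted p = 4.62e-05) and -0.47 ± 0.12 for IV against PBS (edgeR adjusted p = 0.0286). Aurka, the kinase of the spindle poles, had 40.1, 49.6 and 36.7 CPM in IP, 80.3, 80.6 and 49.8 CPM in IV and 77.5, 99.7 and 77.7 CPM in PBS. It was lower in IP (-1.01 ± 0.20, edgeR adjusted p = 0.00308), while IV overlapped PBS and was not called (-0.28 ± 0.20, edgeR adjusted p = 0.38). Aurkb, the kinase that corrects wrong attachments to the spindle, was called lower in both, by 1.21 ± 0.15 in IP and 0.52 ± 0.15 in IV (edgeR adjusted p = 0.000158 and 0.0357). The IV call of Plk1 was lost without PBS 1, PBS 3, IP 4 or IV 1 (edgeR adjusted p up to 0.0797), and that of Aurkb without any 1 of the libraries but PBS 3, IV 1 and IV 4 (edgeR adjusted p up to 0.111).

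Genes of the spindle checkpoint, which delays anaphase until every chromosome is attached, had some of the steepest falls. Bub1, a checkpoint kinase, had 33.5, 40.1 and 30.4 CPM in IP, 58.8, 58.2 and 54.8 CPM in IV and 113, 111 and 96.9 CPM in PBS. Bub1b, which encodes the checkpoint protein BubR1, had 42.9, 52.8 and 50.9 CPM in IP, 75.3, 83.6 and 79.1 CPM in IV and 132, 127 and 129 CPM in PBS. In both genes the 3 groups were apart and the IV libraries were alike. Bub1 fell by 1.63 ± 0.13 in IP and 0.90 ± 0.13 in IV against PBS (edgeR adjusted p = 2.67e-05 and 0.00271), and Bub1b fell by 1.40 ± 0.11 and 0.71 ± 0.11 (edgeR adjusted p = 2.69e-05 and 0.00371). Cdc20 had 35.3, 42.0 and 40.3 CPM in IP, 72.9, 72.3 and 46.7 CPM in IV and 78.8, 91.0 and 87.5 CPM in PBS. It fell by 1.13 ± 0.17 in IP (edgeR adjusted p = 0.000594) and was not called in IV (-0.43 ± 0.17, edgeR adjusted p = 0.114), although all 3 IV libraries lay below PBS.

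All 5 kinesin and spindle genes fell after IP delivery and were called lower after IV delivery, where the calls of Kif11 and Kif23 held whichever library was left out. Kif23, whose protein builds the central spindle for cytokinesis, had 24.3, 30.4 and 21.9 CPM in IP, 49.6, 54.6 and 48.8 CPM in IV and 88.8, 89.8 and 84.6 CPM in PBS. It had the largest fall of the 35 members in IP against PBS, -1.78 ± 0.14 or 70.9% less (edgeR adjusted p = 2.45e-05), with -0.79 ± 0.13 in IV against PBS (edgeR adjusted p = 0.00484). Kif11, the motor that pushes spindle poles apart, had 47.1, 53.6 and 50.5 CPM in IP, 64.4, 63.9 and 84.1 CPM in IV and 135, 121 and 122 CPM in PBS. Unlike in the cyclins, IV 4 was the highest of the IV libraries here. Kif11 fell by 1.32 ± 0.13 in IP and 0.83 ± 0.13 in IV (edgeR adjusted p = 5.76e-05 and 0.00374). Kif20a, a kinesin of cytokinesis, fell by 1.45 ± 0.18 and 0.78 ± 0.18 (edgeR adjusted p = 0.000195 and 0.0181). Nusap1, a microtubule-bundling protein, fell by 1.12 ± 0.12 and 0.38 ± 0.12 (edgeR adjusted p = 6.74e-05 and 0.0486). Tpx2, the activator of Aurora A, had 87.4, 99.5 and 79.5 CPM in IP, 111, 131 and 106 CPM in IV and 161, 177 and 161 CPM in PBS. The 3 groups were apart, with falls of 0.91 ± 0.13 in IP and 0.52 ± 0.13 in IV (edgeR adjusted p = 0.000417 and 0.0226). The IV call was lost for Nusap1 without any 1 of the 9 libraries (edgeR adjusted p from 0.0537 up to 0.129), for Tpx2 without PBS 1 or IV 1 (up to 0.0672 in edgeR) and for Kif20a without PBS 1 (0.0747 in edgeR).

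Centromere and chromosome proteins included the 2 genes most used as markers of proliferation. Mki67, the gene of Ki-67, had 125, 139 and 124 CPM in IP, 186, 238 and 190 CPM in IV and 395, 339 and 304 CPM in PBS. Top2a, the topoisomerase that untangles sister chromosomes, had 211, 245 and 219 CPM in IP, 270, 314 and 281 CPM in IV and 388, 389 and 365 CPM in PBS. Both stepped down without overlap, and Top2a by less. Mki67 fell by 1.42 ± 0.15 in IP and 0.76 ± 0.15 in IV (edgeR adjusted p = 6.65e-05 and 0.00814). Top2a fell by 0.76 ± 0.12 in IP, the smallest fall of the 20 mitotic members there (edgeR adjusted p = 0.000892), and by 0.40 ± 0.12 in IV (edgeR adjusted p = 0.0492). Cenpf, a kinetochore protein, had 31.5, 34.0 and 31.5 CPM in IP, 49.4, 55.2 and 58.9 CPM in IV and 87.0, 79.2 and 78.9 CPM in PBS, with -1.34 ± 0.11 in IP and -0.58 ± 0.11 in IV (edgeR adjusted p = 3e-05 and 0.00824). Cenpe, a kinesin that carries chromosomes to the spindle equator, fell by 0.99 ± 0.12 and 0.42 ± 0.12 (edgeR adjusted p = 0.00013 and 0.0338). Birc5, the gene of survivin, which guides Aurora B to chromosomes, had 66.0, 64.4 and 52.2 CPM in IP, 125, 119 and 65.0 CPM in IV and 109, 158 and 96.8 CPM in PBS. It fell by 0.99 ± 0.25 in IP (edgeR adjusted p = 0.012) and was not called in IV, where the groups overlapped (-0.24 ± 0.25, edgeR adjusted p = 0.57). Without IP 4 the IP call of Birc5 was lost (edgeR adjusted p = 0.0548, the highest over all settings). The IV call of Top2a was lost without any 1 of the 9 libraries (edgeR adjusted p from 0.0507 up to 0.156), and that of Cenpe without any 1 of them but PBS 2 and IV 4 (edgeR adjusted p up to 0.153).

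**Figure D3:**
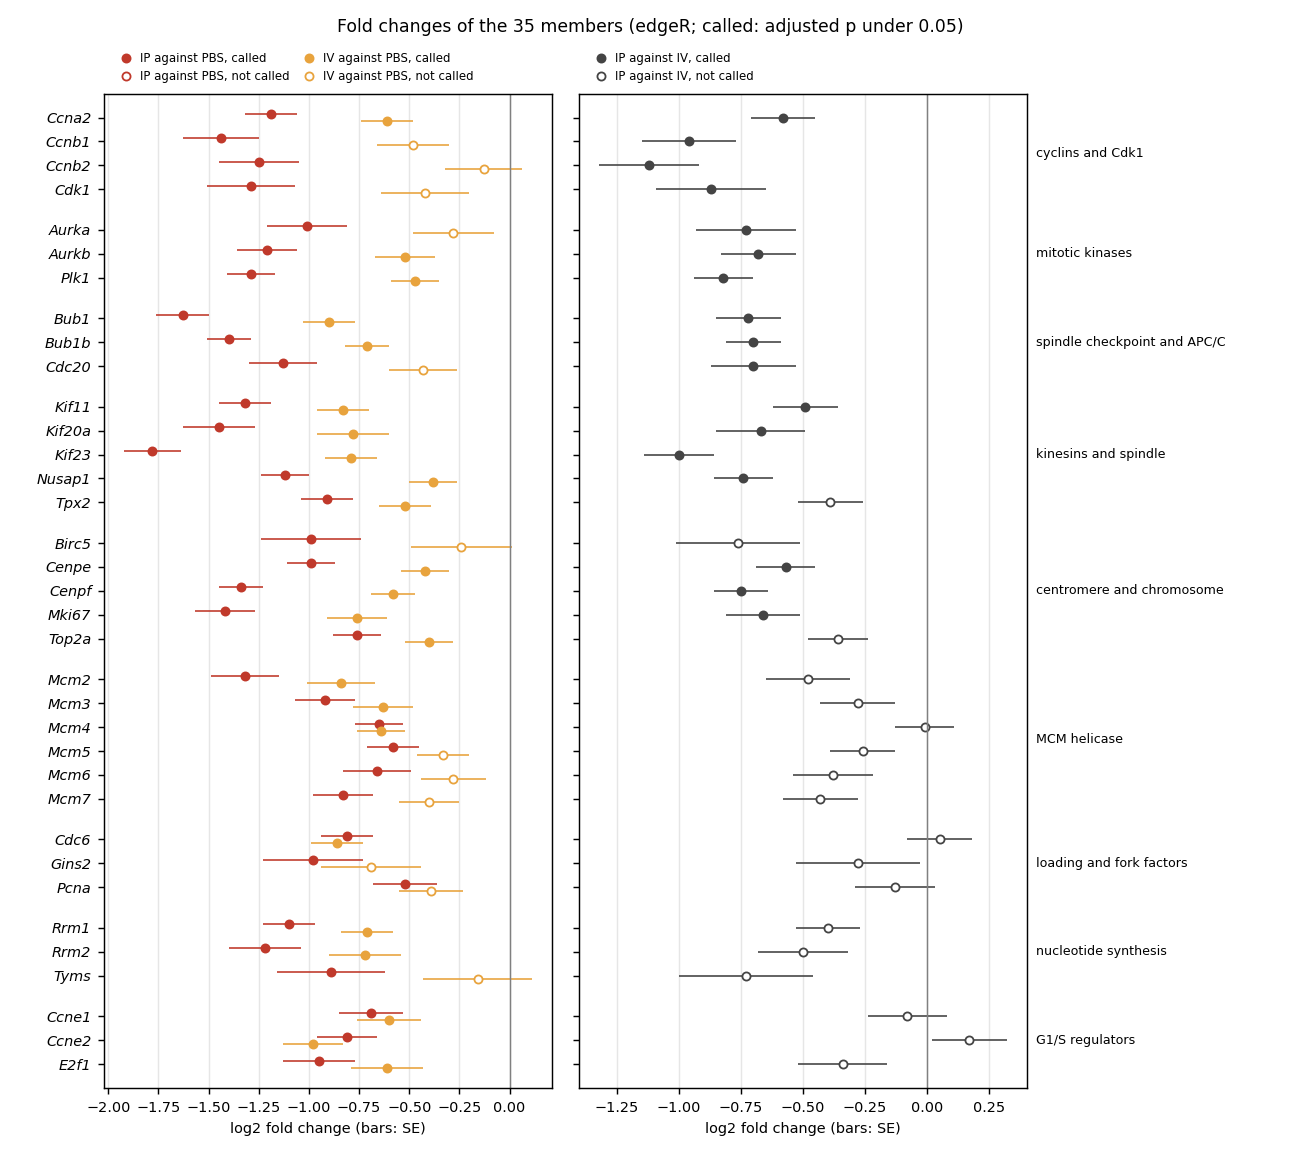
Log2 fold changes with SE (bars) of the 35 members, on the left for IP (red) and IV (orange) against PBS and on the right for IP against IV (grey), with filled points for calls at an adjusted p under 0.05. All 35 red points are filled, 23 orange points are, and on the right the 17 filled points are all mitotic genes.

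In the replication class the MCM helicase, a ring of 6 proteins that opens the DNA double strand, fell as a whole after IP delivery. Mcm2 had 127, 161 and 126 CPM in IP, 204, 220 and 152 CPM in IV and 349, 368 and 316 CPM in PBS. Mcm4 had 79.3, 86.2 and 69.5 CPM in IP, 70.4, 82.2 and 84.8 CPM in IV and 128, 123 and 119 CPM in PBS. In both subunits the IP and IV libraries overlapped each other and lay below PBS. Mcm2 fell by 1.32 ± 0.17 in IP and 0.84 ± 0.17 in IV against PBS (edgeR adjusted p = 0.000194 and 0.00886), and Mcm4 fell by 0.65 ± 0.12 and 0.64 ± 0.12 (edgeR adjusted p = 0.00201 and 0.00755). Mcm3 fell by 0.92 ± 0.15 and 0.63 ± 0.15 (edgeR adjusted p = 0.00113 and 0.0208). The other 3 subunits were called by the peritoneal route alone, a contrast that was not itself called in IP against IV. Mcm5, Mcm6 and Mcm7 fell in IP, by 0.58 ± 0.13, 0.66 ± 0.17 and 0.83 ± 0.15 (edgeR adjusted p = 0.00625, 0.0112 and 0.00184). They were not called in IV against PBS, with -0.33 ± 0.13, -0.28 ± 0.16 and -0.40 ± 0.15 (edgeR adjusted p = 0.117, 0.282 and 0.0996). Their IV levels were 125, 150 and 114 CPM for Mcm5, 196, 266 and 173 CPM for Mcm6 and 105, 136 and 91.3 CPM for Mcm7, each highest in IV 2 and lowest in IV 4. In PBS they were 152, 175 and 161 CPM, 254, 277 and 239 CPM, and 140, 158 and 138 CPM. Without IP 2 the IP call of Mcm6 was lost (edgeR adjusted p = 0.0531), and without PBS 1 or IV 1 the IV call of Mcm3 was (edgeR adjusted p up to 0.0657).

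None of Cdc6, Gins2 and Pcna, which load or accompany the helicase, was called in IP against IV. Cdc6 had 19.5, 19.3 and 19.1 CPM in IP, 16.6, 21.1 and 18.8 CPM in IV and 36.5, 33.4 and 31.8 CPM in PBS. Its falls were of similar size, -0.81 ± 0.13 in IP and -0.86 ± 0.13 in IV (edgeR adjusted p = 0.000787 and 0.00314). Gins2, a subunit of the active helicase, had 19.8, 24.5 and 20.8 CPM in IP, 27.9, 34.6 and 17.4 CPM in IV and 39.7, 55.4 and 32.9 CPM in PBS. It fell by 0.98 ± 0.25 in IP (edgeR adjusted p = 0.0128) and was not called in IV (-0.69 ± 0.25, edgeR adjusted p = 0.0887). Pcna, the sliding clamp of DNA polymerases, had 178, 185 and 161 CPM in IP, 197, 215 and 162 CPM in IV and 247, 297 and 209 CPM in PBS. Its fall in IP, 0.52 ± 0.16, was the smallest of the 35 members (edgeR adjusted p = 0.0293), and in IV it was not called (-0.39 ± 0.16, edgeR adjusted p = 0.123). Without IP 2 the IP call of Gins2 was lost (edgeR adjusted p = 0.0557), and that of Pcna was lost without any 1 of IP 2, IP 3, IP 4, PBS 1 and PBS 2 (edgeR adjusted p up to 0.11).

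Enzymes of deoxyribonucleotide supply fell with the helicase. Rrm1, the large subunit of ribonucleotide reductase, had 152, 176 and 148 CPM in IP, 195, 229 and 204 CPM in IV and 348, 362 and 314 CPM in PBS. It fell by 1.1 ± 0.13 in IP and 0.71 ± 0.13 in IV (edgeR adjusted p = 0.000127 and 0.00625), with no overlap between groups. Rrm2, the small subunit, which is made in S phase, fell by 1.22 ± 0.18 and 0.72 ± 0.18 (edgeR adjusted p = 0.000528 and 0.0231). Tyms, thymidylate synthase, had 41.8, 49.2 and 43.3 CPM in IP, 84.5, 99.3 and 40.9 CPM in IV and 79, 101 and 70.0 CPM in PBS. IV 4 stood at the IP level and the other IV libraries at the PBS level. Tyms fell by 0.89 ± 0.27 in IP (edgeR adjusted p = 0.0277) and had -0.16 ± 0.27 in IV (edgeR adjusted p = 0.735). Its IP call was lost without any 1 of IP 2, IP 3, IP 4, PBS 1 and PBS 2 (edgeR adjusted p up to 0.0938). The IV call of Rrm2 was lost without PBS 1 (edgeR adjusted p = 0.0728).

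The G1/S regulators E2f1, Ccne1 and Ccne2 fell after IP delivery and were called lower after IV delivery, where the call of Ccne2 alone of the 3 held whichever library was left out. E2f1, a transcription factor of replication genes, had 36.4, 41.8 and 35.4 CPM in IP, 50.5, 57.6 and 36.4 CPM in IV and 66.9, 85.7 and 66.5 CPM in PBS. Ccne1 and Ccne2 encode the cyclins that work with Cdk2 to start S phase. Ccne1 had 47.0, 46.3 and 39.3 CPM in IP, 49.5, 51.9 and 39.4 CPM in IV and 72.5, 82.3 and 58.8 CPM in PBS, and Ccne2 had 14.2, 16.4 and 13.7 CPM in IP, 11.8, 13.7 and 14.0 CPM in IV and 29.4, 24.6 and 24.0 CPM in PBS. In the cyclins the treated groups overlapped each other and lay below PBS. E2f1 fell by 0.95 ± 0.18 in IP and 0.61 ± 0.18 in IV (edgeR adjusted p = 0.00213 and 0.042), Ccne1 by 0.69 ± 0.16 and 0.60 ± 0.16 (edgeR adjusted p = 0.00701 and 0.0281), and Ccne2 by 0.81 ± 0.15 and 0.98 ± 0.15 (edgeR adjusted p = 0.00173 and 0.00314). Ccne2 had the largest fall of the 35 members in IV against PBS, 49.4%. The IV call of E2f1 was lost without any 1 of PBS 1, PBS 2, IP 2, IP 3, IP 4 and IV 1 (edgeR adjusted p up to 0.0868), and that of Ccne1 without PBS 1, PBS 2 or IV 2 (edgeR adjusted p up to 0.0964).

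The number of members called in IV against PBS depended on single libraries, PBS 1 above all. The calls of 6 mitotic members (Bub1, Bub1b, Mki67, Kif11, Kif23 and Cenpf) and 5 replication members (Mcm2, Mcm4, Rrm1, Ccne2 and Cdc6) held whichever library was left out. Without PBS 1, 6 mitotic and 5 replication members were called lower in place of 14 and 9, and without IP 4 or IV 1 the mitotic number was 9. Without IV 4 it was 12 and the replication number stayed at 9, while the medians were -0.42 and -0.50. In a fit of the IV and PBS libraries alone 7 and 5 were called, and without the acinar-rich libraries IP 4 and IV 1 together 8 and 5 were called; in IP against PBS, leaving out those libraries gave 19 and 11.

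The routes were then compared with each other. Of the 20 mitotic members 17 were lower in IP than in IV, with a median log2 fold change of -0.71, and of the 15 replication members 0 were called, with a median of -0.28. At an unadjusted p under 0.05, 6 replication members passed the same edgeR test, and DESeq2 called 3. Over all genes 4.47% were called lower, 5.93% higher and 10.4% in either direction, with a median of -0.02. The largest difference was in Ccnb2, which was 54.1% lower in IP (-1.12 ± 0.20, edgeR adjusted p = 0.00555), followed by Kif23 (-1.0 ± 0.14, edgeR adjusted p = 0.00174) and Ccnb1 (-0.96 ± 0.19, edgeR adjusted p = 0.00985). The 3 mitotic members not called were Top2a (-0.36 ± 0.12), Tpx2 (-0.39 ± 0.13) and Birc5 (-0.76 ± 0.25), at edgeR adjusted p of 0.0927, 0.0864 and 0.0856. Replication members ranged from Tyms (-0.73 ± 0.27, edgeR adjusted p = 0.118) to Ccne2 (0.17 ± 0.15, edgeR adjusted p = 0.538), with Mcm4 at -0.01 ± 0.12, Cdc6 at 0.05 ± 0.13 and Ccne1 at -0.08 ± 0.16 (edgeR adjusted p = 0.961, 0.871 and 0.799). Under library totals the value of Cdc6 was -0.06. IP and IV libraries were apart in 19 of 20 mitotic members (all but Birc5) and in 2 of 15 replication members (Mcm7 and Rrm1). How many of all genes were apart in this comparison was not counted, so these numbers have no background beside them.

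These counts too moved with single libraries, and 7 mitotic calls (Bub1, Bub1b, Plk1, Ccnb2, Kif23, Cenpf and Nusap1) held whichever library was left out. The mitotic number was 7 without IP 2, 9 without IP 3, 8 without IP 4 and 11 without IV 2, 5 without IP 4 and IV 1 together, and 17 without IV 4. The replication number was 6 without IV 4, namely Mcm2, Mcm6, Mcm7, Rrm2, Tyms and E2f1, and 4 under library totals, while the medians without IV 4 were -0.77 and -0.41.

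A contrast of the classes inside each library does not depend on how libraries are scaled. The mean log2 CPM of the mitotic members minus that of the replication members was -0.46, -0.45 and -0.43 in IP 2, IP 3 and IP 4, 0.04, -0.11 and 0.07 in IV 1, IV 2 and IV 4, and -0.04, -0.12 and 0.00 in PBS 1, PBS 2 and PBS 3. The 3 IP libraries lay together below all others, and the IV libraries overlapped PBS. Group means were -0.44 ± 0.01 in IP, 0.00 ± 0.10 in IV and -0.06 ± 0.06 in PBS (SD, n = 3 each). Set against the PBS mean, mitotic members averaged -1.25 ± 0.11 in IP and -0.54 ± 0.15 in IV, and replication members -0.86 ± 0.12 in IP and -0.60 ± 0.24 in IV (SD, n = 3 each). After IV delivery the class means stood at similar distances below PBS, and after IP delivery the mitotic mean stood further below it than the replication mean. Leaving out any 1 library kept the IP minus IV value of this contrast between -0.50 and -0.41.

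**Figure D4:**
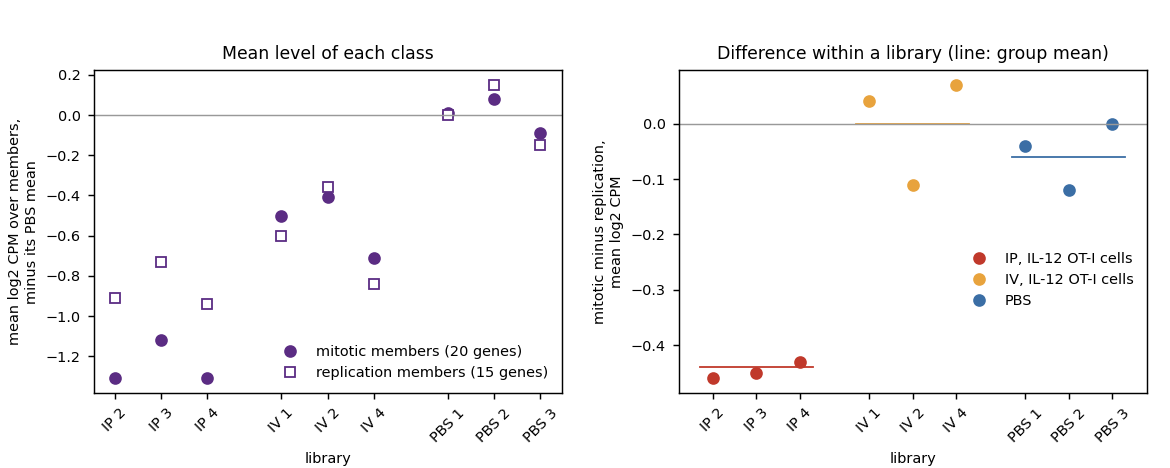
Left, mean log2 CPM of the 20 mitotic members (filled circles) and the 15 replication members (open squares) in each library, minus the PBS mean. Right, the mitotic minus the replication mean in each library, with group means as lines: the IP libraries lie at -0.46 to -0.43, the IV libraries at -0.11 to 0.07 and the PBS libraries at -0.12 to 0.00.

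The IV libraries varied among themselves more than the others. The range over the 3 libraries, as a share of their mean, had a median of 17.9% in IP, 25% in IV and 15.7% in PBS over the mitotic members, and of 17.0% in IP, 35.8% in IV and 18.9% in PBS over the replication members. IV 4 was the lowest IV library in 13 of 20 mitotic and 11 of 15 replication members, although its profile over all genes was closest to a PBS library. Against the mean log2 of IV 1 and IV 2 it was lower by 1.16 in Tyms, 0.91 in Birc5, 0.84 in Gins2, 0.82 in Cdk1 and 0.76 in Ccnb2, and higher by 0.39 in Kif11, 0.37 in Kif20a and 0.17 in Cenpf. Across the 20 mitotic members, which share the same libraries, this difference rose with the length of the annotated exons (Spearman rho = 0.65), and across the 15 replication members it did not (rho = -0.10). The part of transcript length or RNA quality in it was not tested. Without IV 4 the IV against PBS value was 0.08 for Ccnb2, 0.01 for Birc5 and 0.14 for Tyms, all above 0.

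Per kilobase of annotated exon, the replication class held the most abundant transcripts. Rrm2 had 45.9, 64.9 and 107 CPM per kilobase in IP, IV and PBS (group means) and Pcna had 72.9, 79.8 and 104. The mitotic gene with the highest such level was Ccnb2, at 31.7, 69.3 and 75.6 CPM per kilobase. At the low end stood Cenpf, with 2.10, 3.53 and 5.29, and Cdc6, with 3.69, 3.6 and 6.48. Levels of Rrm2 and Pcna per kilobase did not differ beyond their spread in PBS, while in IP Pcna was the higher.

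Most genes of the 2 classes beside the 35 fell too. In IV against PBS their median was lower in the mitotic list. Among the members it was lower in the replication class (-0.63 beside -0.50). Of 45 other mitotic genes 43 were lower in IP than in PBS (median -1.16), 24 lower in IV than in PBS (median -0.53) and 29 lower in IP than in IV (median -0.64), and none was called higher. Smc4 and Pttg1 were the 2 not called in IP against PBS. Of 45 other replication genes 32 were lower in IP (median -0.72), 13 in IV (median -0.39) and 4 in IP against IV (median -0.34), again with none higher. Over all genes the shares called lower in these comparisons were 14.2%, 5.66% and 4.47%. Anln and Ect2, both needed for the cleavage furrow, fell by 1.86 ± 0.16 and 1.66 ± 0.13 in IP against PBS and by 1.19 ± 0.16 and 1.09 ± 0.13 in IV against PBS (edgeR adjusted p = 2.89e-05, 2.59e-05, 0.00207 and 0.00182). Hmmr, a spindle protein, and Nek2, a centrosome kinase, fell by 1.45 ± 0.12 and 1.16 ± 0.13 in IP and by 0.62 ± 0.12 and 0.78 ± 0.12 in IV (edgeR adjusted p = 2.73e-05, 8.14e-05, 0.00826 and 0.00373). Tk1, thymidine kinase of the salvage pathway, had 41.6, 47.8 and 41.6 CPM in IP, 102, 112 and 61.2 CPM in IV and 128, 160 and 120 CPM in PBS. It stood with the mitotic genes, falling by 1.64 ± 0.21 in IP against PBS and by 1.07 ± 0.21 in IP against IV (edgeR adjusted p = 0.000215 and 0.0102), and was not called in IV against PBS (-0.57 ± 0.21, edgeR adjusted p = 0.0877). The chromatin factors Chaf1a and Hells had falls of similar size by either route, of 0.91 ± 0.15 and 0.86 ± 0.15 in IP and of 0.82 ± 0.15 and 0.87 ± 0.16 in IV (edgeR adjusted p = 0.000837, 0.00163, 0.00575 and 0.00561). Uhrf1, which helps copy DNA methylation, fell by 1.06 ± 0.13 and 0.75 ± 0.13, and the histone chaperone Asf1b by 1.18 ± 0.15 and 0.58 ± 0.15 (edgeR adjusted p = 0.000158, 0.00501, 0.000188 and 0.0243). The IV call of Asf1b was lost without PBS 1 or IV 2 (edgeR adjusted p up to 0.0854), and the call of Tk1 in IP against IV without IP 2 (edgeR adjusted p = 0.0587).

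Several transcription factors of the cell cycle fell too. Of 17 tested, 8 were lower and 1 higher in IP against PBS, 8 were lower in IV against PBS, and 2 were lower (Foxm1 and E2f8) and 1 higher (E2f3) in IP against IV. The shares lower and higher over all genes were 14.2% and 18.7%, 5.66% and 10.4%, and 4.47% and 5.93% in the same order. Foxm1, an activator of mitotic genes, had 64.0, 77.4 and 71.7 CPM in IP, 124, 124 and 104 CPM in IV and 185, 158 and 179 CPM in PBS. The 3 groups were apart, with -1.29 ± 0.13 in IP against PBS, -0.57 ± 0.13 in IV against PBS and -0.72 ± 0.13 in IP against IV (edgeR adjusted p = 5.31e-05, 0.0148 and 0.00606). Mybl2, the gene of B-Myb, had 18.4, 20 and 20.2 CPM in IP, 20.2, 27.6 and 20.4 CPM in IV and 38.2, 39.4 and 37.3 CPM in PBS, and its levels in the treated groups were close (-0.97 ± 0.14 in IP and -0.76 ± 0.14 in IV against PBS, edgeR adjusted p = 0.000473 and 0.00701). The repressive factors E2f7 and E2f8 fell by 1.23 ± 0.16 and 1.39 ± 0.14 in IP and by 1.09 ± 0.16 and 0.79 ± 0.14 in IV (edgeR adjusted p = 0.000182, 5.91e-05, 0.00275 and 0.00543). Among 10 G1 cyclins and kinases 3 were lower and 3 higher in IP, and 3 were lower in IV, few genes to set beside those shares. Ccnd1, Cdk2 and Cdc25a, which act ahead of S phase, fell by 0.61 ± 0.15, 0.89 ± 0.15 and 0.51 ± 0.12 in IP (edgeR adjusted p = 0.0111, 0.00101 and 0.00606) and by 0.51 ± 0.15, 0.56 ± 0.15 and 0.50 ± 0.12 in IV (edgeR adjusted p = 0.0473, 0.0263 and 0.0167). Without PBS 1 none of these 3 was called in IV, nor was Foxm1 (edgeR adjusted p = 0.165, 0.108, 0.0552 and 0.0683), and without IP 2 Ccnd1 was not called in IP (edgeR adjusted p = 0.0506). Ccnd1 also lost its IV call without PBS 3, IP 2, IP 3, IP 4, IV 1 or IV 2. Cdk2 also lost its IV call without PBS 2, IP 2, IP 3, IP 4 or IV 2. Ccnd3 and Cdk6, a D cyclin and a kinase partner of D cyclins, rose by 0.64 ± 0.11 and 0.62 ± 0.11 in IP (edgeR adjusted p = 0.0014 and 0.00172), and were not called in IV, at 0.36 ± 0.11 and 0.10 ± 0.11 (edgeR adjusted p = 0.0526 and 0.594).

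The CDK inhibitors, which stop cyclin-dependent kinases, went in different directions. Of 7 tested, 2 were higher and 1 lower in IP against PBS, counts near the 18.7% and 14.2% over all genes, and 0 were called in IV against PBS. Cdkn1a, the gene of p21, had 399, 372 and 310 CPM in IP, 129, 87.1 and 73.7 CPM in IV and 71.1, 98.4 and 84.5 CPM in PBS. The 3 IP libraries stood above all others, at 2.09 ± 0.22 against PBS (edgeR adjusted p = 6.54e-05) and 1.90 ± 0.22 against IV (edgeR adjusted p = 0.000824), with 0.19 ± 0.21 for IV against PBS (edgeR adjusted p = 0.578). Cdkn2c, the gene of p18, had 40.0, 48.0 and 45.1 CPM in IP, 93.3, 81.2 and 101 CPM in IV and 97.9, 108 and 94.8 CPM in PBS, and fell by 1.18 ± 0.13 in IP against PBS and by 1.05 ± 0.13 in IP against IV (edgeR adjusted p = 7.38e-05 and 0.000915). Cdkn1b, the gene of p27, averaged 139 CPM in each of the 3 groups. Cdkn2b rose by 1.43 ± 0.41 in IP (edgeR adjusted p = 0.0197) at low levels of 2.83, 1.40 and 3.07 CPM in IP against 0.710, 0.883 and 1.1 CPM in PBS. That call was lost without PBS 1, PBS 2, IP 2 or IP 4 (edgeR adjusted p up to 0.083). Cdkn1c, Cdkn2a and Cdkn2d had 1.33 ± 0.59, 1.01 ± 0.42 and -0.23 ± 0.23 in IP against PBS and were not called (edgeR adjusted p = 0.112, 0.0934 and 0.494).

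Targets of p53 were counted as a list that includes Cdkn1a. Of 18 tested, 8 were higher and 1 lower in IP against PBS (median 0.57), beside 18.7% and 14.2% over all genes. In IV against PBS 2 were higher and 1 lower (median -0.06), near the 10.4% and 5.66% over all genes. In IP against IV 7 were higher and 1 lower (median 0.63), beside 5.93% and 4.47%. Cdkn1a was itself among the genes higher in IP against PBS and in IP against IV. Mdm2, the ligase that degrades p53, had 208, 189 and 162 CPM in IP, 77.6, 83.9 and 81.6 CPM in IV and 79.5, 81.4 and 78.2 CPM in PBS. Plk2, a polo-like kinase outside mitosis, had 39.1, 34.3 and 30.6 CPM in IP, 6.80, 5.87 and 4.88 CPM in IV and 4.75, 4.91 and 6.28 CPM in PBS. In both genes the IV libraries overlapped PBS and the IP libraries stood far above them. Mdm2 rose by 1.23 ± 0.12 and Plk2 by 2.7 ± 0.19 in IP against PBS (edgeR adjusted p = 4.63e-05 and 1.7e-05), against 0.02 ± 0.12 and 0.13 ± 0.19 in IV against PBS (edgeR adjusted p = 0.914 and 0.678). Btg2, an antiproliferative gene, was higher by both routes, by 1.52 ± 0.18 in IP and 1.15 ± 0.18 in IV, as was Trp53inp1, by 0.73 ± 0.19 and 0.63 ± 0.19 (edgeR adjusted p = 0.000121, 0.00321, 0.0133 and 0.0478). Zmat3 was not called in IP against PBS (0.25 ± 0.13, edgeR adjusted p = 0.176) and fell by 0.47 ± 0.14 in IV (edgeR adjusted p = 0.0388). The IV call was lost for Trp53inp1 without any 1 of the libraries but PBS 3 and IV 1 and for Zmat3 without PBS 1, IP 2, IP 3, IP 4 or IV 2 (edgeR adjusted p up to 0.16 and 0.183), and the IP call of Trp53inp1 without PBS 2 or IP 2 (edgeR adjusted p up to 0.0615). The list holds genes that also respond to other signals, and p53 activity was not measured.

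**Figure D5:**
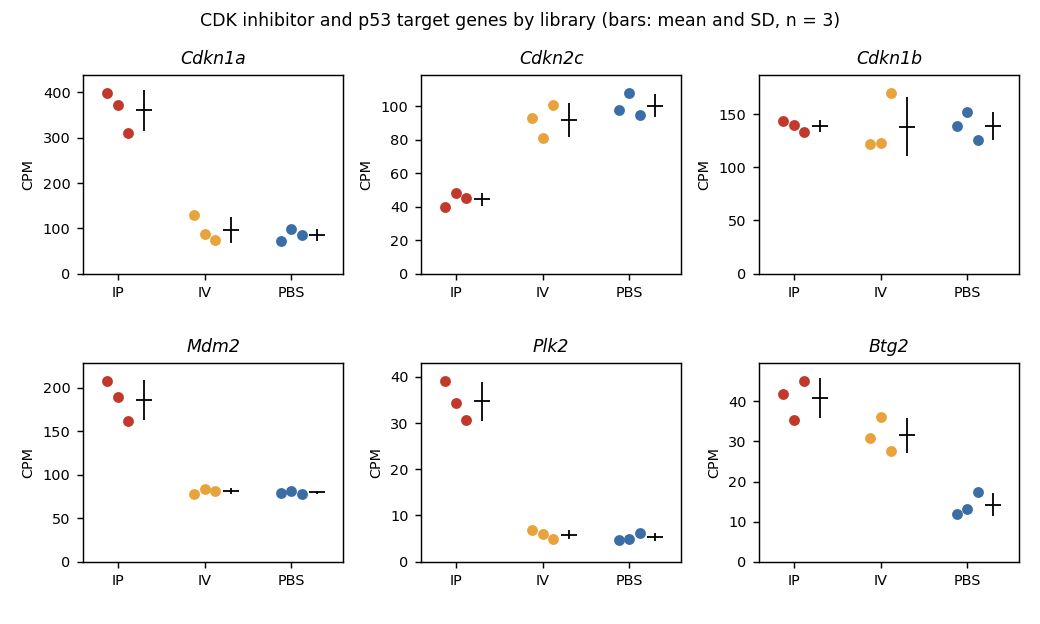
CPM of 3 CDK inhibitor genes and 3 further p53 target genes in each library of IP (red), IV (orange) and PBS (blue), with mean and SD (bars, n = 3). Cdkn1a, Mdm2 and Plk2 are high in the IP libraries alone, Cdkn2c is low there, Cdkn1b averages 139 CPM in every group and Btg2 is higher by both routes than in PBS.

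Markers of the cells that could carry these transcripts were counted as well, and several lists moved. Over all genes 14.2% were called lower and 18.7% higher in IP against PBS, and 5.66% and 10.4% in IV against PBS. In IP against IV the shares were 4.47% and 5.93%. Of 12 melanoma and pigment cell genes, led by Pmel, 9 were lower in IP than in PBS (median -0.93), 6 lower in IV than in PBS (median -0.45) and 5 lower in IP than in IV (median -0.63), with none higher. Their summed level was 14700 to 16500 CPM in IP, 19800 to 25600 CPM in IV and 27900 to 31300 CPM in PBS, without overlap between groups. Inside IV the order of libraries differed, since IV 2 had the lowest melanoma sum, 19810 CPM, and the highest mitotic sum, 2050 CPM. T cell genes, led by Lck, were called higher in 10 of 12 in IP and 8 of 12 in IV against PBS, and macrophage genes, led by Lyz2, in 8 of 10 (1 lower) and 5 of 10. The T cell sum of IV 1, 131.4 CPM, was at the level of PBS 3, 131.0 CPM, while IV 2 and IV 4 had 355.6 and 342.3 CPM. B cell genes, led by Cd79b, were lower in 2 of 10 in IP against PBS, higher in 10 of 10 in IV against PBS and lower in 10 of 10 in IP against IV, with sums of 46.0 to 73.9 CPM in IP, 149 to 547 CPM in IV and 64.2 to 78.2 CPM in PBS. Neutrophil genes were higher in 7 of 10 in IP and 2 of 10 in IV, their precursors' genes in 0 and 2 of 5, and germinal centre genes in 2 and 1 of 5. The neutrophil medians against PBS were nevertheless alike, 2.95 in IP and 2.94 in IV. Neutrophil sums were 141.2, 249.5 and 36.69 CPM in IV 1, IV 2 and IV 4, with 144 to 197 CPM in IP and 11.8 to 27.4 CPM in PBS. Of 9 acinar genes tested none was called in any comparison, although their medians against PBS were 10.98 in IP and 11.98 in IV. The acinar sums spread widely, from 140 to 16100 CPM in IP and 0.708 to 20700 CPM in IV, with 0.366 to 3.85 CPM in PBS. Adipocyte and mesothelial genes, which mark the omentum itself, were called in 0 of 8 and 2 of 6 (1 higher, 1 lower) in IP and 1 and 0 in IV, and endothelial genes in 2 and 0 of 6. Counts of adipocyte and mesothelial genes, of germinal centre genes in IV and of B cell genes in IP were not far above the all-gene shares. No list had a gene at 0 in every library. The part of cell composition in the results on the 35 genes was not tested.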

How the data were processed

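RNA of 9 omenta was sequenced from a poly(A)-selected, directional library each, per the labels' protocols. The submitters' processing notes name STAR 2.7.9, featureCounts, limma and the genome build mm39. Neither source gives the annotation release or the strand setting. The authors deposited whole-number read counts for 55359 genes and a table of log2 CPM for 18833 of them, whose deposited log2 values equal the log of each count plus 0.5 over the library total plus 1, on the CPM scale. Gene symbols came from a GENCODE table of the older build GRCm38, used for names and exon lengths (52083 IDs had one). Counts were fitted with edgeR 4.0.16 in R 4.3.3 (TMM, its default filter, robust quasi-likelihood test, Benjamini-Hochberg over 17123 genes, threshold 0.05) in 1 model of the 3 groups, and CPM printed are TMM-scaled. The SE is the log2 fold change over the root of F. No rank test was used, since the smallest two-sided p of an exact permutation test of 3 against 3 is 0.10. No library pair agreed within counting noise. Alternatives used DESeq2 1.42.0, limma 3.58.1, other scalings and filters, and fewer libraries or counts. The fit was tested on simulated counts, with 67, 67 and 66 genes changed 1.5-fold, 2-fold and 4-fold in each comparison. It was given changed genes drawn from all those tested. It recovered 7.46%, 4.48% and 5.97% of 1.5-fold changes in IP against PBS, IV against PBS and IP against IV. For 2-fold changes it recovered 38.8%, 50.7% and 32.8%, and for 4-fold changes 77.3%, 78.8% and 92.4%. False calls were 4 of 86, 9 of 98 and 2 of 89. A gene not called may therefore still differ. Far fewer genes were changed in the simulation than were called in the data, so the recovered shares need not hold for the members.

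All members were named, with full statistics for the member with the smallest p of each role, those whose call differed from most of their class, and Mki67, Top2a, Pcna, E2f1 and Ccne1; of each pathway list, up to 3 genes per comparison with PBS were named. The members and the lists were chosen with earlier results of these data known, so none of the counts is independent evidence. Promoter windows came from RefSeq on GRCm38.p6 and were not mapped to mm39. Mouse numbers did not pair the samples.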

Additional observations from a re-analysis of the deposited data

Results flagged for a closer look

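The routes differed from each other, in the test of IP against IV, in 30 named genes (edgeR adjusted p under 0.05), and these values are log2 fold changes of IP against IV, with no explanation weighed. Among the mitotic members they were -0.72 for Bub1, -0.70 for Bub1b, -0.82 for Plk1, -0.66 for Mki67, -0.96 for Ccnb1, -1.12 for Ccnb2, -0.58 for Ccna2, -0.87 for Cdk1 and -0.73 for Aurka. They were -0.68 for Aurkb, -0.49 for Kif11, -0.67 for Kif20a, -1.0 for Kif23, -0.57 for Cenpe, -0.75 for Cenpf, -0.70 for Cdc20 and -0.74 for Nusap1. Outside the members, Ect2 had -0.57, Anln -0.67, Hmmr -0.84, Tk1 -1.07, Asf1b -0.59, E2f8 -0.60, Foxm1 -0.72 and Cdkn2c -1.05. The genes that were higher in IP than in IV were Cdk6 at 0.52, Cdkn1a at 1.90, Mdm2 at 1.2, Plk2 at 2.57 and Zmat3 at 0.73. With 1 library left out in turn, 10 of the 17 mitotic calls were lost in some fit. So were the calls of Anln, Asf1b, Cdk6, E2f8, Ect2 and Tk1 (edgeR adjusted p up to 0.131).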

How the results depend on the processing

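The falls of the members in IP against PBS kept their direction under every setting run, with 19 to 20 mitotic and 11 to 15 replication members called when 1 library was left out. Leaving out 1 library gave 980 to 4580 genes, 6 to 12 mitotic and 5 to 9 replication members in IV against PBS, and 673 to 2873 genes, 7 to 17 mitotic and 0 to 6 replication members in IP against IV. Library totals moved the IP medians to -1.43 and -1.0 and called 4 replication members in IP against IV, and limma on the deposited log2 CPM gave -1.43, -1.0 and 3. DESeq2 called 2765 genes and 3 replication members there. Fitting the IV and PBS libraries alone called 1210 genes, 7 mitotic and 5 replication members. The mouse numbers did not pair the samples (correlations of deviations from -0.40 to 0.10), and the replicate block gave an IP mitotic median of -1.11, 8 and 5 members in IV against PBS, and 1134 genes and 8 mitotic members in IP against IV. Settings chosen after seeing the data were leaving out the acinar-rich libraries IP 4 and IV 1 (1647 genes, 8 and 5 members in IV against PBS; 903 genes and 5 mitotic members in IP against IV) and thinning to the depth of IV 2, the shallowest library (3453, 1461 and 867 genes in IP against PBS, IV against PBS and IP against IV, and 8 mitotic members in IV against PBS). CHR was in 7 mitotic windows before the start alone and, as TTTGAA alone, in 1 replication window. The cause of these moves was not tested.

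Signs turned only in genes not called in that comparison. In IP against PBS this was Cdkn1b (0.00 to 0.03 under limma voom, a 1 CPM filter, without the acinar-rich libraries and thinned; -0.07 to 0.03 with 1 library left out). In IV against PBS, Mdm2 had -0.01, -0.04, -0.01, -0.05 and -0.02 (DESeq2 size factors, library totals, DESeq2, deposited log2 CPM, no filter), Cdkn1b 0.02, 0.00, 0.08 and 0.14, Cdkn1a -0.08, Plk2 -0.01 and Cdkn2b -0.45. With 1 library left out the ranges were -0.31 to 0.08 for Ccnb2, -0.41 to 0.01 for Birc5, -0.41 to 0.14 for Tyms, -0.08 to 0.35 for Cdkn1a, -0.19 to 0.08 for Cdkn1b, -0.37 to 0.09 for Cdkn2d, 0.00 to 0.05 for Mdm2 and -0.02 to 0.27 for Plk2. In IP against IV, Cdc6 had -0.06, -0.06, -0.03 and -0.12, Hells -0.10, -0.09, -0.01, -0.01, -0.01, -0.03, 0.00 and -0.09, and Cdkn1b -0.11, -0.08, -0.03, -0.02, -0.02, -0.05 and -0.11. Trp53inp1 had -0.01 and -0.02, Cdc25a 0.00, 0.00 and 0.02, Cdkn2d 0.04 and 0.20, Ccne1 0.04 and Cdkn1c -0.07. With 1 library left out the ranges were -0.09 to 0.07 for Mcm4, -0.03 to 0.13 for Cdc6, -0.24 to 0.01 for Chaf1a, -0.10 to 0.11 for Hells, -0.20 to 0.02 for Ccnd1, -0.07 to 0.03 for Cdc25a, -0.08 to 0.18 for Cdkn1b, -0.31 to 0.14 for Cdkn2d and -0.04 to 0.30 for Trp53inp1.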
